A study of Mus musculus with 16 samples.

Results

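The B7 family ligands are cell surface proteins through which antigen-presenting cells give T cells a costimulatory or an inhibitory signal beside the antigen. The 8 genes described here were Cd80, Cd86, Cd274, Pdcd1lg2, Icosl, Cd276, Vtcn1 and Tnfrsf14, taken as the rows of the count table whose Ensembl identifier has 1 of these symbols in the GENCODE annotation, and all 8 were found among 89407 rows. They were followed in 16 RNA-seq libraries of medullary thymic epithelial cells (mTEC), which came from 8 mice with 1 mature and 1 immature library each. Tnfrsf14 is a member of the TNF receptor superfamily and no B7 protein by sequence, but it is the ligand of the inhibitory receptor BTLA and is described with the family for that role.

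Control mice were Rbfox1 lox/lox or Rbfox2 lox/lox with a Foxn1 wildtype/wildtype genotype. Thymus knockout (tKO) mice carried the same floxed alleles with Foxn1 wildtype/cre, so that Cre recombinase was driven from the locus of Foxn1, the transcription factor that defines thymic epithelium, and every mouse of a line had the floxed gene. Each line gave 2 control and 2 tKO mice, and the labels give C57BL/6 mice of 4 to 6 weeks, whereas the study describes its strain as 129S2/Sv and C57BL/6J mixed. Replicates were individual mice, and the controls were sex-matched littermates. Line went with litter, and Cre went with loss of the RBFOX gene, and neither pair can be told apart here. The sort took CD45-, EpCAM+, Ly51- and UEA+ cells, with high (mature) or low (immature) surface MHC class II, and none of the 8 genes was part of that gate.

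In the thymus medulla, mTEC display peripheral self-antigens to developing T cells, and thymocytes that respond too strongly are deleted or become regulatory T cells. CD80 and CD86 on mTEC and dendritic cells engage CD28 on thymocytes, a signal needed for the generation of regulatory T cells, and they also bind the inhibitory receptor CTLA-4. The protein encoded by Icosl (ICOS ligand) engages ICOS, a relative of CD28, whereas those encoded by Cd274 (PD-L1) and Pdcd1lg2 (PD-L2) engage the inhibitory receptor PD-1. Cd276 encodes B7-H3 and Vtcn1 encodes B7-H4, both mostly described as inhibitory, and their receptors are less well defined.

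The libraries held 3737884 to 4636367 counts in mature and 1506134 to 2430287 in immature mTEC, so that depth went with population, and levels are given as CPM after TMM normalization, which scales every library to a common size. In mature mTEC Rbfox2 was at 9.47 and 16.03 CPM where it had been deleted and at 57.5 and 56.5 CPM in the controls of that line. The immature values were 37.6 and 23.5 against 106 and 94.1 CPM. Rbfox1 was at 33.8 and 29.5 CPM in the mature libraries of its tKO against 52.0 and 48.0 CPM in the controls of that line, and at 151 and 153 against 163 and 160 CPM in the immature libraries. Reads were counted over whole genes, and which exons the floxed alleles remove was not used here, so these counts check the deletion only in part. Of 13 genes that mark thymic epithelium, 12 had counts in every library, with Epcam between 574 and 649 CPM in mature and between 710 and 800 CPM in immature mTEC. The exception was Ccl21a, a chemokine gene of part of the mTEC, which was at 0 counts in 8 of 8 mature and 2 of 8 immature libraries. The MHC class II gene H2-Aa was at 3996 to 5011 CPM in mature and 2138 to 2912 CPM in immature mTEC, and Cd74, the class II invariant chain, at 8382 to 11253 and 5620 to 7782 CPM.

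Cd274 (ENSMUSG00000016496) and Pdcd1lg2 (ENSMUSG00000016498) are neighbours on chromosome 19 of GRCm38, at chr19:29367455-29388095 and chr19:29410919-29471161, both on the plus strand. Cd80 (ENSMUSG00000075122, chr16:38455561-38496335, plus strand) and Cd86 (ENSMUSG00000022901, chr16:36603869-36666081, minus strand) lie on chromosome 16. Icosl (ENSMUSG00000000732) is at chr10:78069302-78083913, Cd276 (ENSMUSG00000035914) at chr9:58524298-58555437, Vtcn1 (ENSMUSG00000051076) at chr3:100825459-100896922 and Tnfrsf14 (ENSMUSG00000042333) at chr4:154921933-154928563, with Icosl and Vtcn1 on the plus strand and the others on the minus strand. The RefSeq promoter table for GRCm38.p6 matched 7 of the 8 genes, all but Cd86. The 250 bases before the start are shown for Cd80, whose level differed most between populations and lines among the genes matched, and for the 2 PD-1 ligand genes, whose levels differed little. The Cd80 window is chr16:38458683-38458932 and its end lies 3371 bases downstream of the start of the longer GENCODE gene model. Exons of an antisense gene cover 185 bases of the Cd274 window. A total of 0 counts was recorded for that gene over all 16 libraries, as it would be for a gene without a row in the count table. The windows of Cd274 and Pdcd1lg2 are chr19:29367188-29367437 and chr19:29410669-29410918. All are on the plus strand and read 5′ to 3′, and capitals mark the NF-kB consensus.
Cd80: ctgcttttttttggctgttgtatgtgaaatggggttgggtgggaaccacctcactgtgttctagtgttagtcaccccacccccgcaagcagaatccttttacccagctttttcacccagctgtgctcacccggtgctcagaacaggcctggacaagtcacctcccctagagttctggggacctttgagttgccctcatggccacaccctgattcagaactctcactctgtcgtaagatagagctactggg
Cd274: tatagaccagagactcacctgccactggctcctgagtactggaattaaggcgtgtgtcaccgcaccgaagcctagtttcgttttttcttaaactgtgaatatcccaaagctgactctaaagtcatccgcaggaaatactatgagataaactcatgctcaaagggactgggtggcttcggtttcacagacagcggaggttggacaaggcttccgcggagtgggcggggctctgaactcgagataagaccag
Pdcd1lg2: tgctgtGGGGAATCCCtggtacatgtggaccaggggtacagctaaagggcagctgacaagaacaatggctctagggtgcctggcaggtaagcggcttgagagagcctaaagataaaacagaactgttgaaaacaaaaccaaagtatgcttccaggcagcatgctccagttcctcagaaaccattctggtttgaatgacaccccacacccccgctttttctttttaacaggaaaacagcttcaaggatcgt
NF-kB and interferon signals are known inducers of these ligands in other antigen-presenting cells, so 3 motifs were searched on both strands in these 250 bases. The 10-letter NF-kB consensus was found in Pdcd1lg2 alone, 244 bases before the start, and 3.90% of all 32851 promoters in the table hold it. The interferon gamma activated site TTCNNNGAA was in none of the 7 windows (7.02% of all promoters), and the interferon-stimulated response element core (TTTC, any 2 bases, TTTC) was in Tnfrsf14 alone, 64 bases before its start, where 2.98% of all promoters hold it. These are matches of letters in a short window, and no protein binding was measured.

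Compared per length of exon, the members spanned a wide range, and their order differed between the populations. In mature mTEC of the 4 control mice, Tnfrsf14 was at 71.1 ± 7.44 CPM per kb (SD, n = 4), Cd80 at 57.6 ± 9.27, Pdcd1lg2 at 48.3 ± 4.75 and Cd274 at 44.6 ± 4.68, and the ranges of neighbours in this order overlapped. Icosl followed at 15.3 ± 2.11 CPM per kb, below every library of Cd274 and above every library of Cd276, which had a mean of 9.04 CPM per kb and ranged from 7.60 to 9.77. Cd276 and Cd86 (8.27 ± 0.585 CPM per kb) overlapped, and Vtcn1 was lowest at 0.617 ± 0.257 CPM per kb. In immature mTEC the PD-1 ligands and Tnfrsf14 led, with Tnfrsf14 at 61.1 ± 14.7, Pdcd1lg2 at 47.7 ± 5.31 and Cd274 at 36.9 ± 3.28 CPM per kb, neighbours overlapping again. Cd276 at 6.34 ± 0.936, Cd80 at 5.67 ± 4.00 and Icosl at 4.46 ± 2.78 CPM per kb overlapped each other, and Vtcn1 (0.796 ± 0.557) and Cd86 (0.244 ± 0.185) were at the bottom. The place of Cd80 in immature mTEC depended on the line. Over the 4 mice of a line it was at 8.42 ± 0.759 CPM per kb in the Rbfox1 line, above every library of Cd276 (5.86 ± 1.38), and at 2.52 ± 1.07 in the Rbfox2 line, below every library of Cd276 (5.49 ± 1.43). With the length of the longest transcript in place of all exon bases the values of Icosl rose to 25.1 CPM per kb in mature and 7.32 in immature mTEC, the largest relative move of any member.

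**Figure D1:**
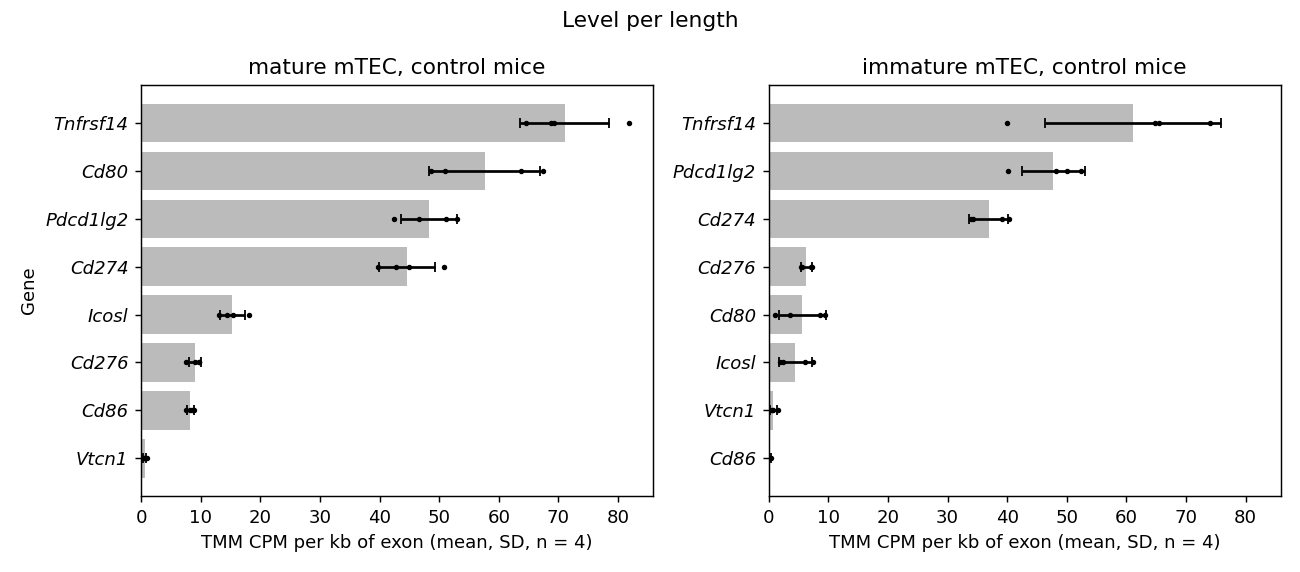
Level per length of the 8 genes in mature (left) and immature (right) mTEC of control mice, as TMM CPM per kb of exon. Bars are means, whiskers the SD and dots the 4 libraries, and Cd80 has a mean of 57.6 in mature and 5.67 in immature mTEC, where its libraries spread from 1.13 to 9.37.

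Mature were compared with immature mTEC to ask which ligands change with the state of the cell. In control mice the ligands of CD28, CTLA-4 and ICOS rose, and the ligands of PD-1 did not pass the threshold for a call, which was an adjusted p under 0.05 and a fold change over 2. Cd80, Cd86 and Icosl were called higher in mature mTEC and no member was called lower. Among the 7 members tested this made 3, where 26.8% of the 16750 features tested were called higher and 11.1% lower. The tKO mice gave the same 3 genes of 7, with 26.3% of 16578 features called higher and 11.9% lower. The median log2 fold change of the 7 members was 0.51 in control and 0.65 in tKO mice, against 0.05 and 0.07 over all features.

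Cd80 stood at 249 and 236 CPM in mature mTEC of the 2 control mice of the Rbfox1 line and at 189 and 180 CPM in those of the Rbfox2 line. In immature mTEC of the same 4 mice it was at 32.1, 34.7, 13.0 and 4.19 CPM, in the same order. Every mature library lay above every immature library, and the immature levels were lower in both mice of the Rbfox2 line. The log2 fold change was 3.63 (SE 0.129, edgeR adjusted p = 2.03e-14), a 12.3-fold difference with a 95% interval from 10.3 to 14.9. In tKO mice it was 3.70 (SE 0.111, edgeR adjusted p = 7.75e-18), or 13.0-fold. Both are means over 2 lines that differed, from fits without a term for mouse. With the mouse as a block the log2 fold change in control mice was 3.35, where the interval given above starts at 3.36 on the log2 scale. Within a mouse the ratio was 6.79 to 8.22 in the Rbfox1 line and 14.5 to 42.9 in the Rbfox2 line, and both means lie between.

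Cd86 was at 32.5, 29.9, 27.5 and 31.3 CPM in mature mTEC of the control mice and at 43.1, 36.5, 28.1 and 27.0 CPM in those of the tKO mice. The immature control libraries held 2, 4, 2 and 0 counts of it and the immature tKO libraries 4, 2, 0 and 1, where a count of 0 allows up to 1.80 CPM in the control and 2.09 CPM in the tKO library. The populations did not overlap, and Cd86 was near the limit of detection in immature mTEC. A fold fitted to such counts depends on a prior, so the ratio of summed counts is given: 540 against 8 counts in control mice, or a ratio of 31.4 after scaling to depth (exact 95% interval from 15.8 to 73.2, counting error only), and 577 against 7 counts in tKO mice, or 34.0 (from 16.4 to 85.0). The fitted log2 fold changes were 5.10 and 5.46 with adjusted p = 3.07e-11 and 7.46e-13 from edgeR. They became 7.14 without the immature library of control mouse 1 of the Rbfox2 line and 7.12 without that of tKO mouse 2 of the same line, each of which left that group with a single library, at 0.

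Icosl was at 60.7, 83.6, 66.6 and 71.2 CPM in mature and 28.3, 34.7, 8.68 and 10.8 CPM in immature mTEC of the control mice. All mature values were above all immature values, by a log2 fold change of 2.02 (SE 0.148, edgeR adjusted p = 6.65e-10), or 4.04-fold with a 95% interval from 3.27 to 5.03. The log2 fold change in tKO mice was 2.09 (SE 0.138, edgeR adjusted p = 6.60e-12). As for Cd80, the immature libraries of the Rbfox1 line stood above those of the Rbfox2 line, and the fold changes are means over both lines. Within a mouse the ratio was 2.15 to 2.79 in the Rbfox1 line and 5.51 to 7.71 in the Rbfox2 line, and both means lie between.

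The PD-1 ligands were abundant in both populations. Cd274 was at 184, 163, 155 and 144 CPM in mature and 146, 124, 142 and 123 CPM in immature mTEC of control mice, so that the populations overlapped. Its log2 fold change of 0.28 (SE 0.0807) had an edgeR adjusted p of 0.00540, a 1.21-fold difference that is below the fold threshold. Its value was higher in the mature library in 8 of 8 mice, by a ratio from 1.06 to 1.405 within a mouse. Pdcd1lg2 was at 104, 83.2, 100.4 and 91.3 CPM in mature and 103, 78.8, 98.1 and 94.7 CPM in immature mTEC of the same mice. The 2 populations had nearly the same values, with a log2 fold change of 0.02 and a 95% interval of the fold from 0.883 to 1.17 (edgeR adjusted p = 0.834).

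Cd276 was at 27.8, 33.3, 35.4 and 35.7 CPM in mature and 20.1, 25.7, 26.6 and 20.4 CPM in immature mTEC of control mice. The groups did not overlap, and the log2 fold change of 0.51 (SE 0.140, edgeR adjusted p = 0.00351) was below the fold threshold, as was that of 0.65 in tKO mice (adjusted p = 0.00358). Of its exon bases 416 are shared with Gm10657 on the other strand, which had 6 counts over all libraries. Tnfrsf14 was at 118, 98.8, 99.7 and 92.7 CPM in mature and 94.2, 107, 93.3 and 57.5 CPM in immature mTEC. Its groups overlapped and its log2 fold change of 0.23 did not pass the test (edgeR adjusted p = 0.0691). Vtcn1 had 4 to 12 counts in mature and 2 to 7 counts in immature libraries, or 0.916 to 2.98 and 0.817 to 4.19 CPM, and was not tested between the populations because of its low counts. Summed over control mice it had 29 against 16 counts, a ratio of 0.844 after scaling to depth, whose exact 95% interval from 0.444 to 1.66 covers counting error only.

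**Figure D2:**
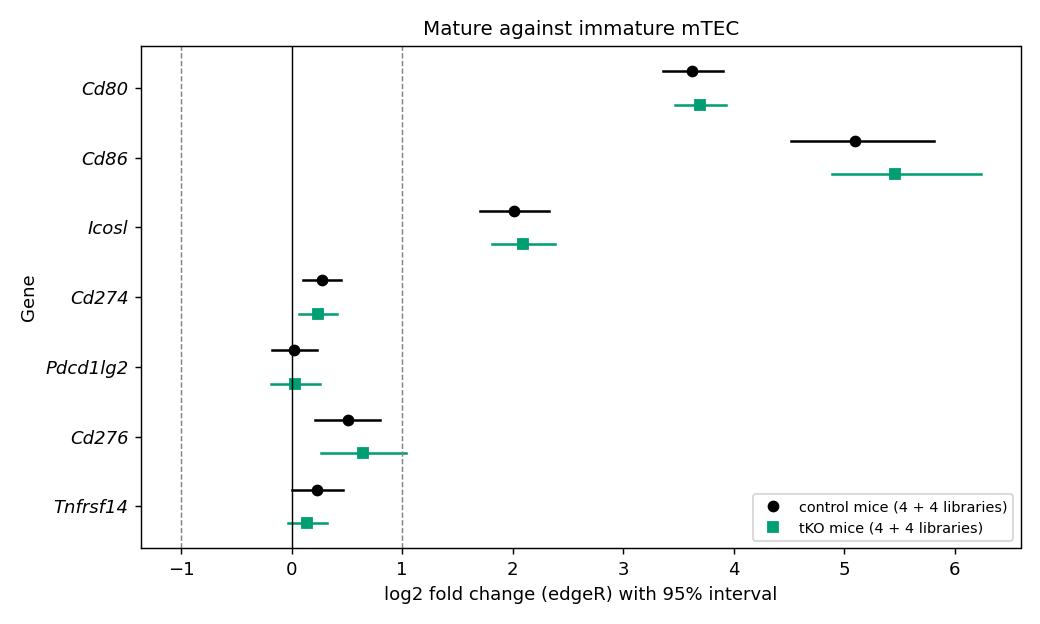
Log2 fold change of mature against immature mTEC for the 7 members tested, with 95% intervals, in control (circles) and tKO (squares) mice, where dashed lines mark a fold change of 2. Cd80, Cd86 and Icosl lie beyond the line at 3.63, 5.10 and 2.02 in control mice, and the other members lie below it.

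Markers of other cells moved with the population. The 14 dendritic cell and macrophage genes summed to 354 to 437 CPM in mature and 43.5 to 65.9 CPM in immature libraries, with 0 to 2 and 4 to 9 of the 14 at 0 counts. The 6 B cell genes summed to 119 to 163 and 19.0 to 41.6 CPM, with 0 and 1 to 3 of them at 0. The 10 thymocyte genes summed to 59.7 to 72.2 and 11.6 to 42.1 CPM, with 0 to 1 and 0 to 7 at 0. The 10 fibroblast and endothelial genes summed to 394 to 601 CPM in mature and 292 to 2092 CPM in immature libraries, with none at 0. Of the 14 dendritic cell and macrophage genes, Clec9a and Itgam were at 0 counts in every immature library, and in 1 and 5 of 8 mature libraries. Ptprc, which encodes CD45, and Zbtb46, Csf1r and Lyz2 of the same list had counts in every library. Dendritic cells and B cells also express Cd80, Cd86 and Icosl. The gate took CD45- and EpCAM+ cells, and what part any other cells had in the differences between the populations was not tested. In bulk libraries, fewer cells of a type and less RNA per cell cannot be told apart.

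Genes around the family moved in both directions, as did features at large. In control mice 26.8% of all features tested were called higher and 11.1% lower in mature mTEC, and in tKO mice 26.3% and 11.9%. Of 5 receptors tested of 7, Btla, Icos and Ctla4 were called higher and Cd28 and Rgmb lower in mature mTEC of control mice. Btla, the inhibitory receptor for Tnfrsf14, had 109 counts in mature against 1 in immature mTEC, a depth-scaled ratio of 50.8 with an exact interval from 8.92 to 2023. Ctla4 had 126 against 3 (ratio 19.6, from 6.54 to 96.1) and Icos 56 against 2 (ratio 13.0, from 3.45 to 110). Pdcd1, which encodes PD-1, was not tested. It had 43 against 1 (ratio 20.0, from 3.41 to 809), and 42 against 0 in tKO mice. Cd160, not tested either, had 3 against 0 in control mice. Cd28 was lower with a log2 fold change of -1.45 and Rgmb, a coreceptor of bone morphogenetic proteins that also binds PD-L2, with -1.31. In tKO mice Ctla4 and Btla were called higher and Cd28 and Rgmb lower, out of 4 receptors tested. Ctla4 had 113 counts against 0 there, and the exact 95% interval of the depth-scaled ratio starts at 12.4. Btla, Icos and Ctla4 are known from lymphocytes. Which cells of these libraries, mTEC or others, gave their counts or those of Pdcd1 was not tested.

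The next list also stands beside 26.8% of all features called higher and 11.1% lower in control mice, and 26.3% and 11.9% in tKO mice. Of the 17 other costimulatory and inhibitory ligands tested of 22, 12 were called higher and 2 lower in mature mTEC of control mice. In tKO mice it was 10 and 2 of 17. By fitted fold change among the genes called, the first 4 in control mice were butyrophilin-like genes, relatives of the B7 proteins, of which Btnl1 rose from a summed 14 counts to 1120, Btnl6 from 10 to 420, Btnl2 from 17 to 627 and Btnl4 from 6 to 245. Their log2 fold changes were 5.19, 4.36, 4.19 and 4.14, and the depth-scaled ratios of their counts 37.3, 19.6, 17.2 and 19.0. With few immature counts the fitted order depends on a prior, and by the ratio of counts Tnfsf14 (58 counts against 1, ratio 27.0, from 4.66 to 1085, not tested) and Tnfsf4 (90 against 2, ratio 20.96, from 5.64 to 176) came before all of these but Btnl1. How reads that fit several of these related genes were counted is not known here, so the split among them is uncertain. In tKO mice the first 4 by fitted fold change were Tnfsf4, Btnl1, Btnl2 and Btn1a1, of which Btn1a1 had 58 counts against 4 and a ratio of 5.99, below that of Cd70 (9.004) and other genes of the list. Tnfsf4, which encodes OX40 ligand, had 125 counts against 1, a depth-scaled ratio of 51.6 with an exact interval from 9.09 to 2055. Lgals9, which encodes galectin-9, fell by 2.49 on the log2 scale in control and by 2.50 in tKO mice, and Vsir, which encodes the inhibitory ligand VISTA, fell by 1.67 and 1.76.

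For 2 further lists, the shares of all features called were again 26.8% higher and 11.1% lower in control mice. They were 26.3% and 11.9% in tKO mice. Of 8 genes that act on the amount of these ligands or their receptors, Marchf1 was called higher in mature mTEC of control mice. Marchf8 and Cd81 were called lower. Marchf1 and Marchf8 encode ubiquitin ligases that remove surface proteins such as CD86 and MHC class II, and Marchf1 had 89 counts against 1 (ratio 41.5, from 7.25 to 1655) while Marchf8 fell by 1.53 on the log2 scale. In tKO mice Lrba, which protects CTLA-4 from degradation, was called as well, with a log2 fold change of 1.03. Cd81, a tetraspanin, fell by 1.11 in control and by 1.05 in tKO mice. Of 18 genes listed with the signals known to induce these ligands, 3 were called higher in control and in tKO mice. Aire is in that list but is known as a mark of mature mTEC, and whether any of the 3 acts on the ligands was not tested. They were Aire, Rel and Traf6, with log2 fold changes of 3.27, 1.88 and 1.22 in control mice. Among the genes called lower were Ifngr1 and Ltbr, with log2 fold changes of -1.85 and -1.26 in control mice. Rel and Traf6 act in NF-kB signalling, Ifngr1 encodes a chain of the interferon gamma receptor and Ltbr the lymphotoxin beta receptor.

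**Figure D3:**
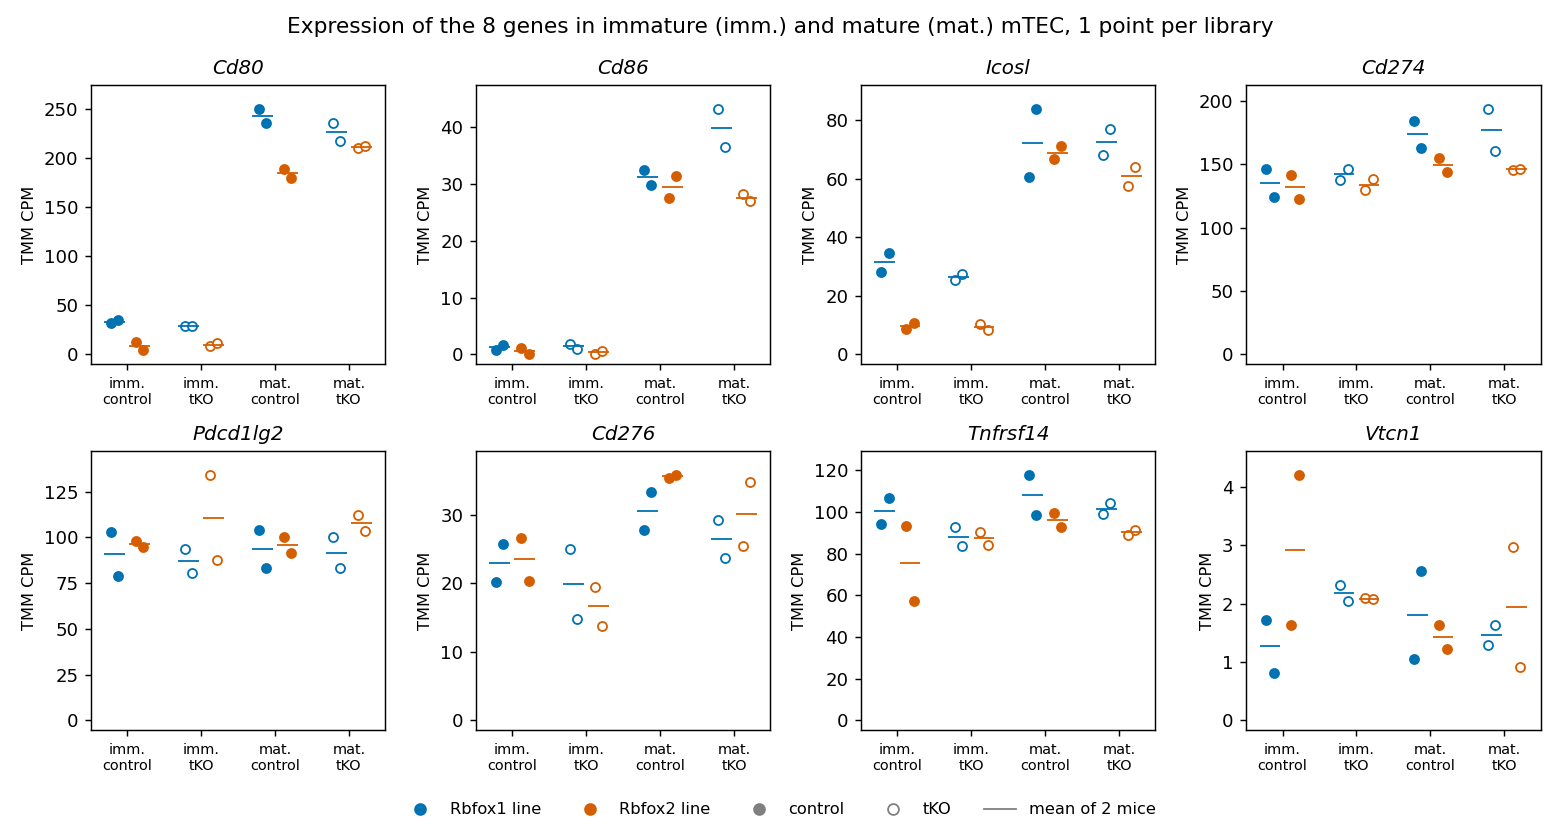
TMM CPM of the 8 genes in each of the 16 libraries, in immature and mature mTEC of control (filled) and tKO (open) mice of the Rbfox1 (blue) and Rbfox2 (orange) lines, with a bar at the mean of 2 mice. The mature values of Cd80, Cd86 and Icosl stand above all immature values, and the immature values of Cd80 and Icosl differ between the lines.

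Control and tKO mice were compared within each line to ask whether loss of an RBFOX splicing factor in thymic epithelium changed these ligands. No member was called in any of these comparisons. In mature mTEC all 8 members were tested, and edgeR called 0.0166% of 18021 features in the Rbfox1 line and 0.0277% in the Rbfox2 line. In immature mTEC 6 members were tested, without Cd86 and Vtcn1, and 0.0306% and 0.0536% of 13060 features were called. Over both lines, with 4 mice of each genotype and a term for line, again no member was called, where 0.0166% of features were called in mature and 0.0306% in immature mTEC. DESeq2 also called no member in these 6 comparisons. By edgeR an unadjusted p under 0.05 was reached by 1 member in mature mTEC of either line and by none in the other 4. In mature mTEC 604 of 18021 features reached it in the Rbfox1 line and 962 in the Rbfox2 line.

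The members with an unadjusted p under 0.05 were Cd86 in the Rbfox1 line and Cd80 in the Rbfox2 line. Mature Cd86 was at 43.1 and 36.5 CPM after loss of Rbfox1 against 32.5 and 29.9 CPM in the controls, so the tKO values lay above the control values. The log2 fold change of 0.36 (SE 0.146) had an adjusted p of 0.9996 from edgeR, and that in the Rbfox2 line was -0.10. Mature Cd80 was at 210 and 212 CPM after loss of Rbfox2 against 189 and 180 CPM in the controls, without overlap. Its log2 fold change of 0.19 (SE 0.0877) had an adjusted p of 0.915 from edgeR. In the Rbfox1 line Cd80 was at 236 and 218 CPM in tKO against 249 and 236 CPM in control mice, with a log2 fold change of -0.09.

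For the remaining members tested, the values of the 4 tKO mice overlapped with those of the 4 controls. Within a line, 2 mice of each genotype did not always overlap. The mature tKO values of the Rbfox2 line lay below both controls for Icosl, Cd276 and Tnfrsf14 and above them for Pdcd1lg2. The immature tKO values lay below both controls for Cd80, Icosl and Tnfrsf14 in the Rbfox1 line and for Cd276 in the Rbfox2 line, and none of these had an unadjusted p under 0.05. Cd274 was at 193, 161, 146 and 146 CPM in mature mTEC of the tKO mice (Rbfox1 line mice 2 and 3, then Rbfox2 line mice 1 and 2) and at 138, 147, 130 and 138 CPM in their immature mTEC. Pdcd1lg2 was at 99.99, 83.4, 112 and 103 CPM in mature and at 93.6, 80.7, 134 and 87.7 CPM in immature mTEC. Icosl was at 68.0, 77.0, 57.6 and 63.9 CPM in mature and at 25.5, 27.6, 10.5 and 8.29 CPM in immature mTEC. The highest immature value of Pdcd1lg2 came from a tKO mouse of the Rbfox2 line. Its fellow mouse, at 87.7 CPM, was below both controls of that line (98.1 and 94.7 CPM) and within the range of the 4 controls of both lines. Cd276 was at 29.2, 23.7, 25.4 and 34.8 CPM in mature and 25.01, 14.8, 19.5 and 13.8 CPM in immature mTEC. Tnfrsf14 was at 98.9, 104, 88.7 and 91.6 CPM in mature and 92.6, 83.7, 90.6 and 84.2 CPM in immature mTEC. The log2 fold change of Cd276 was below 0 in both lines and both populations, between -0.20 and -0.48, and none of these passed the test.

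A p above the threshold does not show that the genotypes were alike, and the intervals say how large a difference the data allow. Leaving aside Vtcn1, the 95% intervals of the fold of tKO over control reached from 0.675 to 1.58 in mature mTEC of the Rbfox1 line and from 0.662 to 1.33 in that of the Rbfox2 line. In immature mTEC they reached from 0.588 to 1.29 and from 0.455 to 2.16. Cd80 had the widest interval in immature mTEC of the Rbfox2 line, from 0.622 to 2.16, and its 4 libraries there held 7 to 24 counts. Its log2 fold change there was 0.21, but 1.26 without the library of control mouse 1 and -0.34 without that of control mouse 2. In mature mTEC the interval of Vtcn1 ran from 0.314 to 2.103 in the Rbfox1 line and from 0.486 to 3.52 in the Rbfox2 line.

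The difference between mature and immature mTEC was not shown to depend on genotype. In the test of that difference over all 16 libraries no member passed, and 0.0% of 17442 features did at an adjusted p under 0.05 from edgeR. Before adjustment 907 features but no member had a p under 0.05, and DESeq2 called none. The difference of the log2 fold changes, tKO minus control, was 0.06 for Cd80 (95% interval of the fold from 0.756 to 1.44), 0.06 for Icosl (from 0.745 to 1.46) and 0.35 for Cd86 (from 0.355 to 4.77). Whether the effect of the knockout differed between the lines was tested by edgeR after the data were seen. No member passed in mature mTEC (where 0.00555% of features did) or in immature mTEC (0.00766%). Cd80 and Cd86 had an unadjusted edgeR p of 0.0304 and 0.0491 in mature mTEC, where 840 of 18021 features were under 0.05. Of the other receptors, ligands, turnover genes and inducers, none was called between tKO and control mice, out of 6, 20, 8 and 18 tested in mature and 2, 10, 7 and 18 in immature mTEC of each line. Before adjustment 0 and 5 of these genes had a p under 0.05 in mature and 2 and 1 in immature mTEC of the Rbfox1 and Rbfox2 lines. Over all features it was 604 and 962 of 18021 in mature and 770 and 816 of 13060 in immature mTEC.

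**Figure D4:**
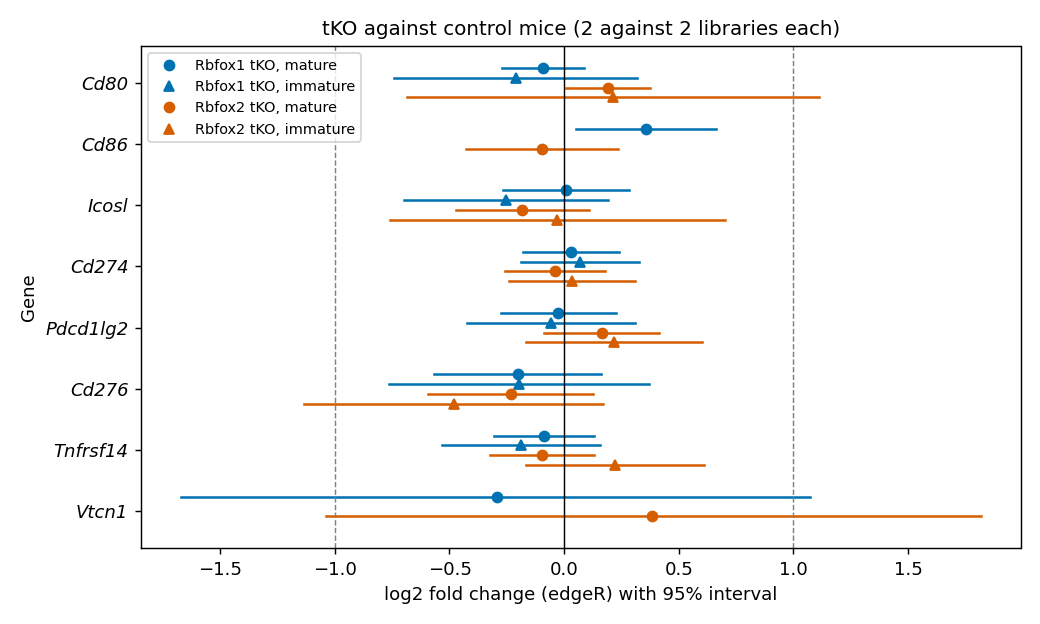
Log2 fold change of tKO against control mice with 95% intervals in mature (circles) and immature (triangles) mTEC of the Rbfox1 (blue) and Rbfox2 (orange) lines, where dashed lines mark a fold change of 2. All estimates lie between the dashed lines, and the widest intervals belong to Vtcn1.

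The lines were compared because each has its own litters and controls. In immature mTEC Cd80 and Icosl were higher in the Rbfox1 line than in the Rbfox2 line, and the other 4 members tested did not pass the test. These 2 of 6 stand beside 3.08% of 13060 features called higher and 1.92% called lower in the Rbfox1 line. Immature Cd80 was at 32.1 and 34.7 CPM in control and 28.7 and 29.1 CPM in tKO mice of the Rbfox1 line, against 13.0 and 4.19 CPM in control and 8.36 and 11.7 CPM in tKO mice of the Rbfox2 line. The lines did not overlap, in control or in tKO mice. The log2 fold change was 1.74 (SE 0.229, edgeR adjusted p = 2.92e-05), or 3.33-fold with a 95% interval from 2.40 to 4.67.

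Icosl differed between the lines by about as much. It was at 28.3, 34.7, 25.5 and 27.6 CPM in immature mTEC of the Rbfox1 line (controls, then tKO) and at 8.68, 10.8, 10.5 and 8.29 CPM in that of the Rbfox2 line, again without overlap. The log2 fold change was 1.61 (SE 0.189, edgeR adjusted p = 8.50e-06), or 3.05-fold with an interval from 2.33 to 4.03. Cd274, Pdcd1lg2, Cd276 and Tnfrsf14 had log2 fold changes of 0.06, -0.21, 0.10 and 0.22 there, and their 95% intervals of the fold lay between 0.720 and 1.43. Cd86 had 2 to 4 counts in the immature libraries of the Rbfox1 line and 0 to 2 in those of the Rbfox2 line, and was not tested.

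In mature mTEC no member was called between the lines, where 0.782% of 18021 features were called higher and 0.272% lower in the Rbfox1 line. DESeq2 called none either. By edgeR 4 members had an unadjusted p under 0.05, beside 5048 of the 18021 features. Cd80 and Cd274 were 1.19-fold higher each in the Rbfox1 line, with edgeR adjusted p = 0.0180 and 0.0250, below the fold threshold. The mature value of Cd80 lay between 218 and 249 CPM in the Rbfox1 line and between 180 and 212 CPM in the Rbfox2 line. The interval of the fold for Icosl was 0.970 to 1.28.

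Within a mouse, the mature value of Cd80 was 6.79 to 8.22 times the immature value in the 4 mice of the Rbfox1 line and 14.5 to 42.9 times in those of the Rbfox2 line. For Icosl the ratio was 2.15 to 2.79 in the Rbfox1 line and 5.51 to 7.71 in the Rbfox2 line. The immature libraries of the Rbfox2 line held only 7 to 24 counts of Cd80 and 12 to 18 of Icosl. The ratio of 42.9 rests on the library with 7. The ratios of the lines did not overlap for either gene. A test of the difference between the lines in the contrast of mature and immature mTEC, chosen after the data were seen, gave a log2 difference of -1.47 for Cd80 (SE 0.212, edgeR adjusted p = 7.99e-05) and of -1.44 for Icosl (SE 0.226, adjusted p = 0.000207), Rbfox1 minus Rbfox2 line. These 2 of 7 members stand beside 4.76% of 17442 features with an adjusted p under 0.05. For Cd86 the difference was -1.21 with an interval of the fold from 0.122 to 1.36 (edgeR adjusted p = 0.491), and for the other 4 members it lay between -0.32 and 0.19 without passing.

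Other genes moved with the line in immature mTEC. Aire, a regulator of tissue-restricted antigens that marks mature mTEC, was at 211 to 298 CPM in the Rbfox1 line and at 19.5 to 53.9 CPM in the Rbfox2 line. The 10 fibroblast and endothelial genes went the other way, with a sum of 292 to 563 CPM in the Rbfox1 line and 1362 to 2092 CPM in the Rbfox2 line, none at 0 counts. The 14 dendritic cell and macrophage genes summed to 43.5 to 65.9 and 48.5 to 59.6 CPM and the 6 B cell genes to 27.1 to 41.6 and 19.0 to 35.3 CPM, ranges that overlapped. H2-Aa and Cd74, which the sort was made on or goes with, had log2 fold changes of -0.19 (edgeR adjusted p = 0.0366) and -0.12 (adjusted p = 0.219), and Foxn1 had 0.28 (adjusted p = 0.0367). What part Aire-expressing, fibroblast or endothelial cells have in the difference between the lines was not tested. Of the related lists, Tnfsf9, Tnfsf15 and Btn2a2 among 10 other ligands were called higher in the Rbfox1 line, with log2 fold changes of 1.90, 1.36 and 1.35. Aire was called higher with 2.71 among the 18 genes of the inducer list, and 3.08% of all features were called higher there. None of 2 receptors and 7 turnover genes was called there, and edgeR called none of the 52 genes of these 4 lists in mature mTEC. Of these 52 genes, 17 had an unadjusted p under 0.05 in mature mTEC, beside 5048 of 18021 features.

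**Figure D5:**
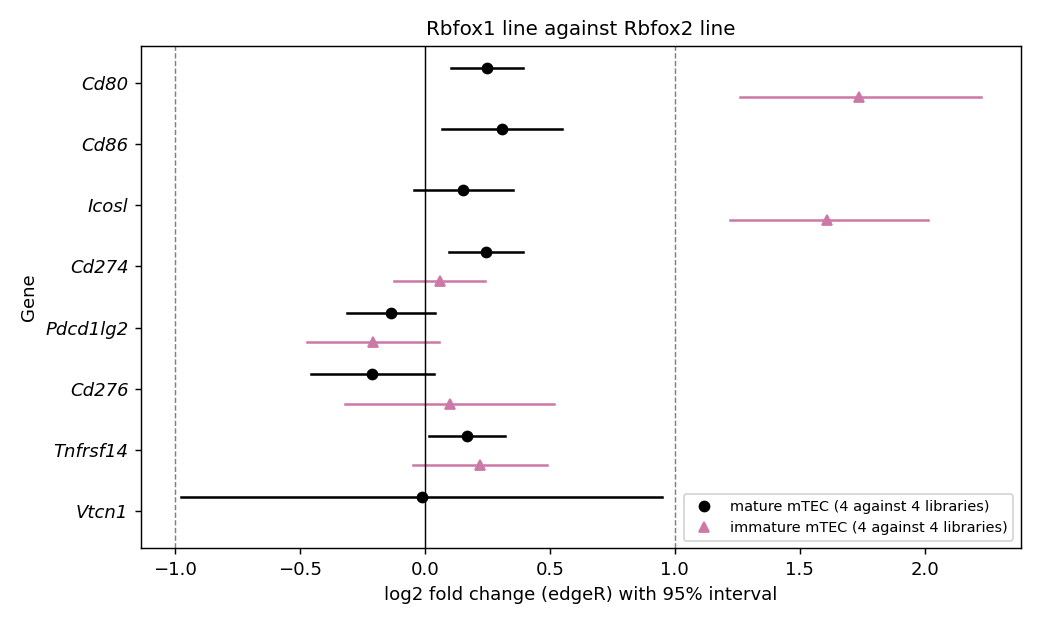
Log2 fold change of the Rbfox1 line against the Rbfox2 line with 95% intervals in mature (circles) and immature (triangles) mTEC, over control and tKO mice, where dashed lines mark a fold change of 2. Cd80 and Icosl lie beyond the dashed line in immature mTEC at 1.74 and 1.61, and all other estimates are between -0.21 and 0.31.

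Over all 16 libraries, Cd80, Cd86 and Icosl varied together and Pdcd1lg2 had values of r near 0 with the others. Pearson's r of log2(CPM + 1) was 0.97 between Cd80 and Cd86, 0.96 between Cd80 and Icosl and 0.91 between Cd86 and Icosl, and between -0.17 and 0.09 for Pdcd1lg2 with the other 6 members, leaving aside Vtcn1. The libraries are of 2 populations, so these values carry the differences between mature and immature mTEC given above and are no separate result. The points share libraries, and the 2 populations differ in depth, so these values are a description only. Among 13282 genes with a mean of at least 5 CPM, those most like Cd80 were Ccdc33, Grin2c and Rapgef1 (0.992, 0.991 and 0.990) and those most like Cd86 were Kmo, Foxp4 and Tfap2b (0.996, 0.995 and 0.994). Gramd4, Gm14199 and Myb were most like Icosl (0.99, 0.98 and 0.98). The next genes to Cd274 were Nbeal2, Tacc2 and Cgnl1 (0.87, 0.87 and 0.86), to Pdcd1lg2 Krcc1, Taf12 and Synrg (0.83, 0.83 and 0.80), to Cd276 Tfg, Dffa and Pwp1 (0.90, 0.88 and 0.87), and to Tnfrsf14 Slc2a13, Ift88 and Dennd1b (0.91, 0.85 and 0.84).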

How the data were processed

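RNA-seq was done on 16 libraries of mature and immature mTEC. The authors deposited raw counts per gene, made from aligned reads without duplicates. By the column names, libraries had been down-sampled, to 14500000 for mature and 10000000 for immature mTEC. According to the submitters' processing notes, featureCounts 1.6.0, HISAT2 2.1.0 and Picard 2.10.9 were used with mm10. Whether strand was used in counting is not given. Libraries held 1506134 to 4636367 counts, and intervals on counts cover counting error only.

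Names, positions and exon lengths came from GENCODE M21 (GRCm38), which held 53360 of the 53464 Ensembl genes of the table. Counts were fitted with edgeR 4.0.16 in R 4.3.3 (TMM, filterByExpr with its count minimum of 10, quasi-likelihood test), and p-values were adjusted by Benjamini-Hochberg over all features. A call needed an adjusted p below 0.05 and a log2 fold change beyond 1 in size, and a difference between effects the adjusted p alone. Populations were compared within a genotype with line as a term, and genotypes and lines within a population. Ratios of summed counts have exact binomial 95% intervals. A count of 0 allows up to 3 counts. Likeness was Pearson's r in Python 3.11.15. The test was tried on simulated counts.

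The members and gene lists were chosen with earlier results of these data known. The text names every member, up to 4 called genes of each related list in each direction by fold change, 4 genes that check the sort (Foxn1, Aire, H2-Aa and Cd74) and the 3 genes most like each member. The targeted genes were named as well. Epcam, Ccl21a, Clec9a, Itgam, Ptprc, Zbtb46, Csf1r, Lyz2, Tnfsf14, Cd70, Pdcd1 and Cd160 were named after their values were seen. One gene that this rule would name is not reported here. The 2 libraries of a group differed by more than counting noise (chi-square per degree of freedom of 1.78 to 2.74). Mature and immature libraries of 1 number came from the same mouse, and their deviations from the group means correlated by 0.145 to 0.247. Alternatives were DESeq2 1.42.0, its size factors, library totals, other filters, no fold threshold, all libraries in 1 fit, sex as a term, a replicate block, transcript lengths and leaving out each library.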

Additional observations from a re-analysis of the deposited data

Results flagged for a closer look

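In 2 results a difference between mature and immature mTEC was not of the same size in the 2 lines, as tested by an interaction of line and population that was chosen after the data were seen. For Cd80 the log2 fold change of mature against immature mTEC was smaller in the Rbfox1 line, with a difference of -1.47, and for Icosl with a difference of -1.44. Both genes were lower in all 4 immature libraries of the Rbfox2 line than in all 4 of the Rbfox1 line. Counts in those libraries of the Rbfox2 line were low, at 7 to 24 for Cd80 and 12 to 18 for Icosl. Line and litter cannot be told apart, and Aire and the fibroblast and endothelial genes moved with the line in the same libraries.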

How the results depend on the processing

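The number of members called was the same in all 96 fits that left out 1 library: 3 of 7 between the populations in control and in tKO mice, 2 of 6 between the lines in immature mTEC and 0 in the other comparisons refitted. The tests chosen after the data were seen, among them the flagged results of Cd80 and Icosl, were not refitted in this way. With at least 10 counts required in every library it was 1 in mature against immature mTEC of control mice and 1 between the lines in immature mTEC, since Cd80, and between the populations also Cd86, were then not tested. Without the fold threshold it was 5 of 7 between the populations in control and in tKO mice, with Cd274 and Cd276 added. This stands beside 11530 of 16750 features in control and 11230 of 16578 in tKO mice. Between the lines in mature mTEC it was 2 of 8, beside 2441 of 18021 features. With the mouse as a replicate block the log2 fold change between the populations in control mice was 3.35 for Cd80 and 1.76 for Icosl. Deviations of tKO and control mice of 1 number correlated by 0.0724 to 0.248. Libraries of the same mouse correlated by 0.145 to 0.247, so these values cannot tell pairs from other mice. The main fits had no term for mouse or pair. No member gained or lost a call with either replicate block. The difference between genotypes in the contrast of populations, close to 0 for Pdcd1lg2, became 0.0076 with the replicate block and 0.029 with no filter, and that of Vtcn1 between the lines in mature mTEC became 0.043 with library totals.

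Of 84 log2 fold changes 27 changed sign when 1 library was left out, none of them called. Their ranges over these fits were as follows. Between the populations Pdcd1lg2 ranged from -0.066 to 0.13 in control and from -0.10 to 0.20 in tKO mice. Between Rbfox1 tKO and control mice the mature values ranged from -0.10 to 0.15 for Cd274, -0.18 to 0.14 for Pdcd1lg2, -0.20 to 0.26 for Icosl, -0.79 to 0.46 for Vtcn1 and -0.21 to 0.044 for Tnfrsf14, and the immature values from -0.043 to 0.19 for Cd274, -0.24 to 0.14 for Pdcd1lg2 and -0.62 to 0.11 for Cd276. Between Rbfox2 tKO and control mice the mature values ranged from -0.19 to 0.0030 for Cd86, -0.086 to 0.015 for Cd274 and -0.62 to 1.04 for Vtcn1, and the immature values from -0.34 to 1.26 for Cd80, -0.054 to 0.14 for Cd274, -0.12 to 0.49 for Pdcd1lg2, -0.20 to 0.14 for Icosl and -0.067 to 0.62 for Tnfrsf14. Between the lines Vtcn1 ranged from -0.38 to 0.43 in mature and Cd276 from -0.069 to 0.23 in immature mTEC. The difference between genotypes in the contrast of populations ranged from -0.47 to 0.34 for Cd80, -1.63 to 2.01 for Cd86, -0.12 to 0.015 for Cd274, -0.14 to 0.17 for Pdcd1lg2, -0.045 to 0.19 for Icosl, -0.027 to 0.35 for Cd276 and -0.30 to 0.048 for Tnfrsf14. Depth limits Cd86 in immature mTEC and Vtcn1 throughout, with at most 4 and 12 counts in a library, and the cause of the sign changes was not tested.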
